A study of Mus musculus with 64 samples.

Results

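H3K27me3 was compared between naive splenic B cells and the same kind of cells stimulated with CpG for 12 h, with 3 peak lists on each side. These 6 libraries were chosen from 64 samples by their antibody and time labels, and 61 of the 64 samples had a peak list. The cells were CD23+ B cells from the spleens of female F1 mice. The mothers were C57BL/6 with a heterozygous Xist deletion and the fathers were Mus musculus castaneus (Cast), so both groups share this cross. The labels do not say which animals inherited the deletion, and they give no age. Naive cells were unstimulated (0 h). Stimulated cells received 1 µM CpG, DNA that activates the receptor TLR9, for 12 h. The libraries were made by CUT&RUN, in which an antibody directs a nuclease to cut the chromatin around its target. The lists used here carry the word Cast in their names and were read as peaks of reads assigned to the Cast copy of each chromosome. Only autosomes were used.

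H3K27me3 is the trimethylation of lysine 27 on histone H3. It is laid down by Polycomb repressive complex 2, whose subunits include Suz12 and the methyltransferases Ezh1 and Ezh2, and it marks silent genes. Its best known targets are developmental regulators with CpG-rich promoters, such as the Hox genes. Polycomb repressive complex 1, which contains Ring1B, ubiquitinates histone H2A to H2AK119Ub, and both marks often lie on the same genes. Resting CD23+ B cells are mostly follicular B cells, which grow and divide after TLR9 stimulation.

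The promoters of 4 genes are shown as examples of regions that differed between the times and of regions that did not. The first pair belongs to genes without a peak in any naive list and with one in every 12 h list, Hba-x, the embryonic zeta globin, and Pf4, a chemokine of platelets and their precursors. The second pair belongs to genes covered in every list at both times, Foxd1 and Nkx2-9, which code for developmental transcription factors. Each sequence runs from 250 bases before an annotated start to 50 bases after it, in the direction of the gene. All come from RefSeq on GRCm38.p6 (the assembly of mm10), with the first promoter listed for each gene. The Nkx2-9 window lies within the annotated gene, which spans chr12:56611389-56613569. CG dinucleotides are in capitals.
Hba-x, chr11:32276350-32276649, plus strand: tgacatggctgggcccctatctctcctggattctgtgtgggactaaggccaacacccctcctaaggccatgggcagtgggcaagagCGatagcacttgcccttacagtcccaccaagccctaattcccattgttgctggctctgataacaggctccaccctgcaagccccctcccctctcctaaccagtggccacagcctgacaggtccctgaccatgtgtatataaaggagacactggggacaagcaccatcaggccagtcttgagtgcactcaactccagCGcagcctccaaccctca
Pf4, chr5:90772185-90772484, plus strand: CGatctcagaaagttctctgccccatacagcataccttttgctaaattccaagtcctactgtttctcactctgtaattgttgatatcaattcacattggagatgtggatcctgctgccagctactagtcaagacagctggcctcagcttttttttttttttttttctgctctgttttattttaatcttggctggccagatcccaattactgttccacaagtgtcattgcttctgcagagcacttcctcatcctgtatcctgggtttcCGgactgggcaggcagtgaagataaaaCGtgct
Foxd1, chr13:98353995-98354294, plus strand: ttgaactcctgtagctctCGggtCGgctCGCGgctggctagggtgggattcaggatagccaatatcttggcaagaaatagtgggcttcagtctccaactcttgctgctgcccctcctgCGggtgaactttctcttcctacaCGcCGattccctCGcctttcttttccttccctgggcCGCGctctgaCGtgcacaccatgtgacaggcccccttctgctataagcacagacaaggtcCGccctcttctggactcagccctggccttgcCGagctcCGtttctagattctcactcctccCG
Nkx2-9, chr12:56613235-56613534, minus strand: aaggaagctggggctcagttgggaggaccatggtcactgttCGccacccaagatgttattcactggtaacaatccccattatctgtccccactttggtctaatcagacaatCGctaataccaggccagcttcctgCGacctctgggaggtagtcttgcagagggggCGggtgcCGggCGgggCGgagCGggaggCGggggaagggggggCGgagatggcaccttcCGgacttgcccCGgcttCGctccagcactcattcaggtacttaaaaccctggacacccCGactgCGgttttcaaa
The Hba-x sequence holds 2 CG dinucleotides and the Pf4 sequence holds 3. The Foxd1 and Nkx2-9 sequences hold 15 each, with an observed over expected CpG of 0.624 and 0.571. Over all 25747 autosomal promoters in the table the median was 7.

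The naive libraries were not alike. Peaks covered 29.7 Mb of the autosomes in naive replicate 1, 31.8 Mb in replicate 2 and 94.4 Mb in replicate 3. The 12 h libraries covered 132, 103 and 80.9 Mb. Naive replicate 3 thus lay within the range of the 12 h libraries. By the measure used here its overlap was larger with the 12 h lists than with the other naive lists. The overlap, as bases shared over bases in either list, was 0.470, 0.459 and 0.551 with the 12 h replicates 1, 2 and 3, and 0.253 and 0.297 with naive replicates 1 and 2. Naive replicates 1 and 2 overlapped each other by 0.286, and the 12 h lists by 0.460 to 0.486. This measure is limited where lists differ in length. Naive replicate 3 held 84.3% and 91.0% of the bases of naive replicates 1 and 2. It held 54.9%, 60.2% and 77.0% of those of 12 h replicates 1 to 3. Covered lengths, gained stretches and counts of calls are therefore also given without naive replicate 3. Single-gene values include it unless stated. The label of naive replicate 3 was kept as given, and whether it is right was not tested.

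**Figure D1:**
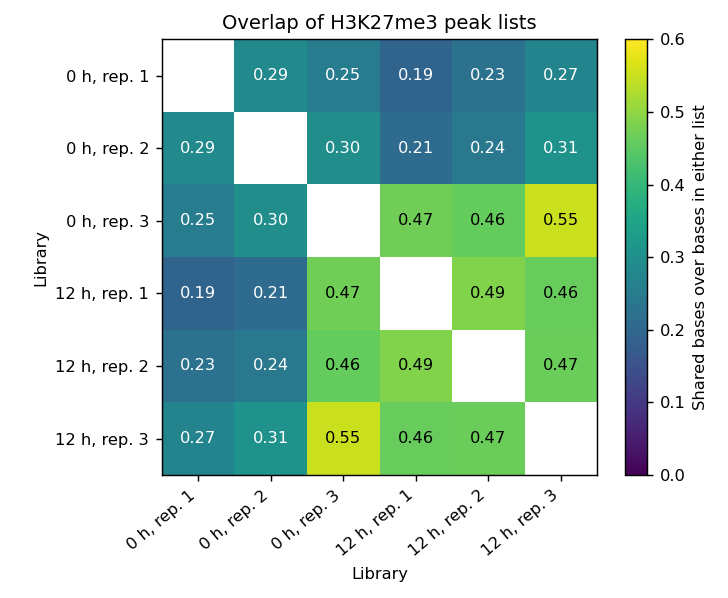
Overlap of the 6 H3K27me3 peak lists on the autosomes, as bases shared over bases in either list (colour and number in each cell). Naive replicate 3 overlaps the 12 h lists by 0.46 to 0.55 and the other naive lists by 0.25 and 0.30.

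The sources used here do not give the read depth. The peak heights of a library came in whole multiples of 1 smallest unit, within a tolerance of 0.02 units. That unit was 1.00, 0.767 and 0.326 in naive replicates 1 to 3, and 0.770, 0.892 and 0.601 in the 12 h replicates. The lowest peak kept was 6, 9 and 9 units high in the naive lists and 6 units in each 12 h list. The thresholds behind the lists therefore differed, and their part in the results was not tested.

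The labelled cell type was checked with H3K27ac, a mark of active promoters and enhancers, from separate libraries of the same study. H3K27ac peaks lay on 6, 8 and 9 of 9 B cell markers in the 0 h libraries and on all 9 in each 12 h library. The mean covered share of these markers lay between 28.4% and 78.6% at 0 h and between 81.9% and 90.4% at 12 h. Over 8 T cell markers the 0 h libraries lay between 0% and 7.02% and the 12 h libraries between 5.69% and 8.67%. Peaks lay on 0, 1 and 1 of these markers at 0 h and on 2, 3 and 2 at 12 h. Each library with such a peak had one at Cd3d, and the 12 h libraries also at Cd3g, Cd247 or both. Cd3e, Cd4, Cd8a, Bcl11b and Themis were at 0 in all 6 libraries. Over 8 myeloid markers the ranges were 0% to 0.683% and 0.687% to 1.90%. Peaks lay on 0, 1 and 0 of them at 0 h and on 1, 3 and 1 at 12 h. Each library with such a peak had one at Adgre1, and 12 h replicate 2 also at Csf3r and Itgam. Cebpa, Mpo, S100a8, S100a9 and Lyz2 were at 0 throughout. Over 6 erythroid markers no 0 h library had a peak, and 1 of the 12 h libraries had one, at Klf1, with a mean of 6.46%. H3K27me3 had no peak on any of the 9 B cell markers in any of the 6 libraries. The part of other cell types in the results was not tested.

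Autosomal H3K27me3 coverage was larger at 12 h in most libraries, but the groups overlapped. It was 52.0 ± 36.8 Mb in naive cells and 105 ± 25.4 Mb at 12 h (SD, n = 3 each), a log2 difference of 1.21 or 2.31-fold. The 2-sided exact permutation test gave p = 0.2, and 3 libraries against 3 cannot give less than 0.1. Without naive replicate 3 the naive mean was 30.7 ± 1.45 Mb and the log2 difference was 1.75 or 3.36-fold, with an exact p of 0.1, the smallest that this design allows. The number of autosomal peaks was 5147, 2751 and 7400 in the naive lists and 15344, 13889 and 9729 in the 12 h lists, without overlap. The median peak was 5.12, 10.1 and 10.1 kb long in the naive lists and 6.51, 5.94 and 6.51 kb at 12 h. When the 2751 peaks with the highest signal were taken from each list, the log2 difference in covered length was 0.20. The 4 libraries at 24 h covered 201 to 311 Mb.

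**Figure D2:**
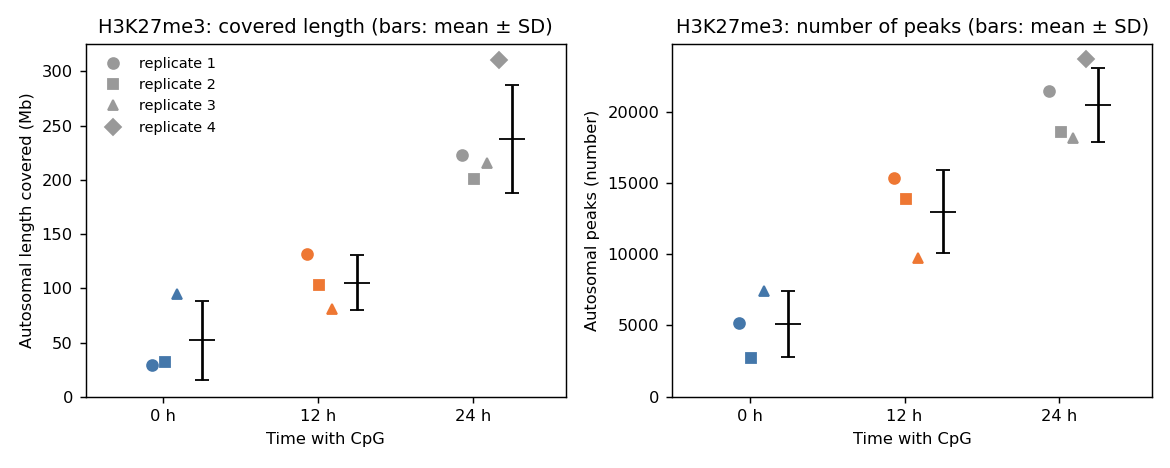
Autosomal length covered by H3K27me3 peaks (left, Mb) and number of autosomal peaks (right), by hours of CpG. Points are libraries, with the replicate given by the symbol, and bars are mean ± SD. Naive replicate 3, at 94.4 Mb, lies above the 12 h library at 80.9 Mb, while all 12 h lists hold more peaks than any naive list.

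H3K27me3 regions of naive cells were largely kept at 12 h. Naive regions, taken as bases in at least 2 of the 3 naive lists, summed to 40.9 Mb. The 12 h lists covered 91.0%, 84.5% and 85.0% of them, a mean of 86.8% ± 3.64 (SD, n = 3). Of the 13.4 Mb shared by all 3 naive lists they covered 97.2%, 94.3% and 95.2%. In naive cells 33 genes were covered to 100% in all 3 lists, and 8 of them, picked among these ties by the smaller p and then by name, are given here. They were Ch25h (cholesterol 25-hydroxylase), Mos (a kinase of germ cells), Prph (the neuronal filament peripherin) and the transcription factors Foxd1, Foxl1, Nkx2-5, Nkx2-6 and Nkx2-9. At 12 h all 8 were 100% covered in every list except 12 h replicate 2, where Prph was at 82.8% and Nkx2-9 at 85.6%.

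Most of the coverage at 12 h lay outside the naive regions. The share of the list outside them was 71.7%, 66.6% and 57.0% in 12 h replicates 1 to 3, and 14.6%, 8.03% and 57.0% in naive replicates 1 to 3. Against bases in any naive list, naive replicate 3 included, the mean share outside was 32.7%, in place of 65.1%. The shares for the naive lists are lowered by construction, because these lists define the regions.

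H3K27me3 outside the naive regions was densest next to them. Within 5 kb of a naive region the 12 h lists covered 43.8%, 33.7% and 31.6% of the sequence. At 5 to 10 kb they covered 24.5%, 18.1% and 13.4%, at 20 to 50 kb 9.05%, 6.53% and 3.72%, and beyond 100 kb 1.61%, 1.13% and 0.661%. Naive replicate 3 followed the same course, with 42.2% within 5 kb and 0.692% beyond 100 kb, and lay within the range of the 12 h lists at each of the 6 distances. Naive replicates 1 and 2 covered 2.37% and 4.38% within 5 kb and 0.0616% and 0.0142% beyond 100 kb. Every 12 h list was above both of them at each distance. Outside the naive regions a base can be in at most 1 naive list, which limits replicates 1 and 2 most near replicate 3's peaks.

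**Figure D3:**
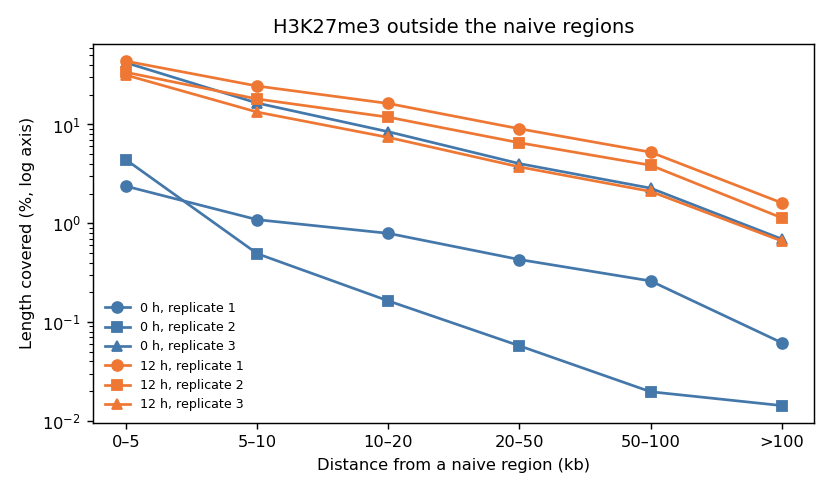
Share of the autosomal sequence covered by H3K27me3 (percent, log axis) at increasing distance from the naive regions (kb), 1 line per library, with 12 h in orange and 0 h in blue. The 12 h lines fall from 31.6% to 43.8% next to the regions to about 1% beyond 100 kb, and naive replicate 3 runs among them.

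Bases covered in all 3 lists at 12 h and in no naive list summed to 5.71 Mb, in 1546 stretches of at least 1 kb with a median of 3.55 kb. The reverse, in all naive lists and no 12 h list, came to 0.0631 Mb in 21 such stretches. For comparison, 11.9 Mb were in all 6 lists. With naive replicate 3 left out, 22.0 Mb in 5480 stretches were in all 12 h lists and neither naive list, an alternative chosen after the data were seen. Of the 1546 gained stretches, 23.6% touched a naive peak, 31.8% lay within 10 kb of one, 21.0% lay 10 to 50 kb away and 23.7% lay beyond 50 kb. Gene regions, meaning genes with 2 kb on each side, held 52.1% of the bases of these stretches and make up 50.4% of the autosomes.

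The longest gained stretch, 13.3 kb at chr11:32269102-32282396, lay in the alpha globin cluster over Hba-x and reached the regions of Hba-a1 and of the neighbouring Nprl3. The second, 9.86 kb at chr5:103427023-103436882, lay in the region of Ptpn13, a tyrosine phosphatase. A stretch of 8.27 kb at chr7:104590683-104598956 held the olfactory receptor genes Olfr654 and Olfr655. The longest lost stretch, 5.19 kb at chr1:128528855-128534039, lay in no gene region. Others were in the regions of the interferon lambda receptor gene Ifnlr1 (2.94 kb) and of Ttyh1 (1.59 kb). These stretches were chosen after their values were seen and are given without a test.

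At the level of genes, coverage rose at 12 h in 126 genes, among them Hba-x, Olfr655 and Pf4, and fell in none by the unscaled test. Each gene was given the percent of its region that lay under peaks. Of 33069 autosomal protein-coding and lncRNA genes, 23287 had no peak in any of the 6 lists, and the 6574 with a peak in at least 3 of them were tested with limma. At a Benjamini-Hochberg adjusted p under 0.05, 126 genes (1.92%) were higher at 12 h and 0 (0%) were lower. At an unadjusted p under 0.05, 1039 (15.8%) were higher and 9 (0.137%) were lower. After each list was scaled to the same autosomal covered length, 265 genes (4.03%) were higher and 10 (0.152%) were lower, and 107 genes were higher in both fits. The median difference over the tested genes was 9.92 percentage points unscaled and -0.10 after scaling. Without naive replicate 3 the unscaled fit called 1610 genes (24.5%) higher, including all 126, and 3 (0.0456%) lower, while the scaled fit called 1524 (23.2%) higher and 1016 (15.5%) lower. With the same number of peaks taken from each list the balance turned, to 5 higher and 9 lower unscaled and 11 higher and 20 lower scaled. With the replicate number as a block, 0 genes were called. The unscaled count of 126 was 77 without naive replicate 1, 54 without naive replicate 2, 61 without 12 h replicate 1 and 58 without 12 h replicate 2. The scaled count of 265 was 165 without naive replicate 2, and the count of 10 lower genes was 25 and 38 without naive replicates 1 and 2 and 3 without each 12 h replicate. With only the 6 libraries at 0 and 12 h in the fit, the scaled counts were 0 and 0. In 1118 tested genes (17%) every 12 h list was above every naive list, and in 20 (0.304%) every 12 h list was below.

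The 126 genes gained between 5.27 and 100 percentage points, with a median of 53.7. Of them 70 were protein-coding and 56 were lncRNA genes. In 101 of the 126 no naive list had a peak, in 14 only naive replicate 3 had one, and in 4 all naive lists had one. Genes without a naive peak passed the filter only through their 12 h peaks, so their calls and p-values, as well as this split, depend on that filter. When a peak in at least 1 of the 6 lists sufficed, 54 genes were called in place of 126, and Il22, G6pc and Prnd, described next, were no longer among them. Of the 6574 tested genes, 416 had no naive peak. The median gene was 5.50 kb long among the 126 and 19.8 kb among the tested genes. A promoter was called CpG-rich when its GC content was at least 50% and its observed over expected CpG at least 0.6. Among the 126, 105 had a promoter in the table and 18 of these (17.1%) were CpG-rich. Among the tested genes 1989 of 4987 (39.9%) were CpG-rich, and among genes with a peak in all naive lists 679 of 1483 (45.8%). Among protein-coding genes alone the shares were 20.0%, 48.1% and 53.3%. Of all 25747 autosomal promoters 8911 (34.6%) were CpG-rich. These groups are not matched, since most of the 126 genes had no naive peak, unlike most tested genes, and they were shorter. The share among tested genes without a naive peak was not computed. Whether the rise itself went with CpG-poor promoters was therefore not tested.

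The 12 rises described first had the largest differences among genes that passed in both fits without overlap of the groups. Olfactory, vomeronasal and other genes with close copies, which stand with their lists below, and predicted models that do not code for protein were passed over. All of the named rises except Resp18 and Cd300e had no naive peak, so their p-values depend on the filter as described above. Hba-x was at 0% in all 3 naive lists and at 100% in all 3 lists at 12 h, a difference of 100 percentage points (SE 10.3, adjusted p = 0.00284). Pf4, on chromosome 5, was at 0% in the naive lists and at 90.0%, 98.7% and 100% at 12 h (difference 96.2, SE 10.5, adjusted p = 0.00284). Ackr1, an atypical chemokine receptor of red cells and venules, was at 0% in the naive lists and at 100%, 87.5% and 82.4% at 12 h (adjusted p = 0.00445). Il22, a cytokine of T cells and innate lymphoid cells, was at 0% and then at 50.8%, 100% and 71.0% (adjusted p = 0.0234). Cd300e, a receptor of myeloid cells, was at 0%, 0% and 23.8% in the naive lists and at 76.8%, 65.7% and 69.7% at 12 h (adjusted p = 0.0149). Naive replicate 3 was the only naive list with a peak at Cd300e.

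Krt27, a keratin of the hair follicle, was at 0% in the naive lists and at 100%, 93.4% and 69.8% at 12 h (adjusted p = 0.00617). Nr0b2, a nuclear receptor that restrains bile acid synthesis in liver, went from 0% to 75.0%, 75.2% and 81.7% (adjusted p = 0.00599). G6pc, the glucose-6-phosphatase of liver and kidney, was at 71.0%, 64.3% and 55.4% at 12 h after 0% in the naive lists (adjusted p = 0.0446). These 3 genes had no naive peak at all. Pjvk, a gene needed for hearing, reached 75.1%, 65.2% and 75.4%, and 1700003F12Rik reached 68.6%, 68.0% and 56.6%, both from 0%. Prnd, a relative of the prion protein, went from 0% to 81.8%, 50.8% and 42.5%. Resp18, a neuroendocrine gene, was at 0%, 0% and 27.4% in the naive lists and at 77.5%, 78.0% and 87.7% at 12 h. The adjusted p of these 4 genes was 0.00646, 0.00978, 0.0288 and 0.0106 in that order.

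At 24 h the same genes stayed covered. The mean of the 4 libraries was 100% ± 0 at Hba-x and Nr0b2, 99.4% ± 1.10 at Pf4, 98.3% ± 3.37 at Ackr1 and 93.0% ± 0 at Cd300e (SD, n = 4). The lowest 24 h mean among the 12 was 73.7% ± 12.7, at 1700003F12Rik. The 24 h libraries entered the fit only to estimate the spread.

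**Figure D4:**
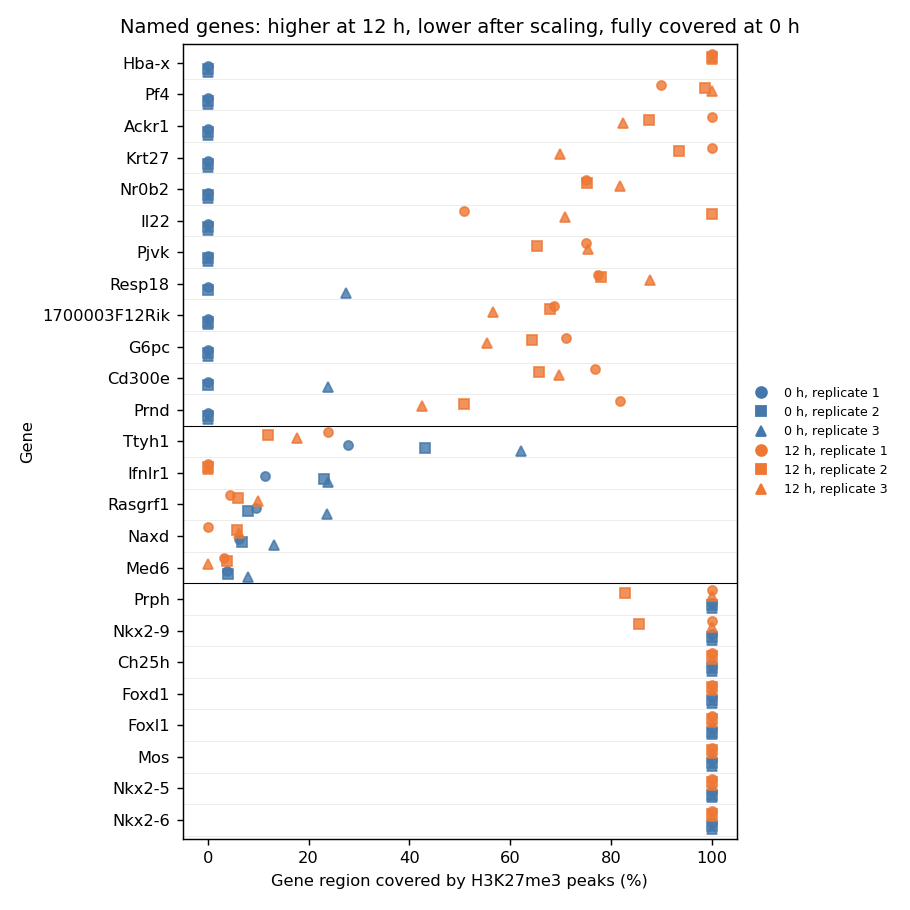
Percent of each named gene region covered by H3K27me3 peaks in the 3 naive (blue) and 3 12 h (orange) libraries, with the replicate given by the symbol. From top to bottom are the 12 rises, the 5 genes called lower after scaling and the 8 genes fully covered in naive cells, and the rises sit at 0% in the naive lists except naive replicate 3 at Resp18 and Cd300e.

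The 10 genes lower after scaling included 5 that are not predicted models. Ttyh1, a membrane protein of neural cells, was covered to 27.7%, 43.1% and 62.1% in the naive lists and to 23.9%, 11.9% and 17.6% at 12 h. Its scaled means were 66.7% and 11.6% (difference -55.1, SE 11.8, adjusted p = 0.0258), and unscaled its adjusted p was 0.236. Ifnlr1 was covered to 11.4%, 23.1% and 23.9% in the naive lists and to 0% in all 12 h lists (scaled adjusted p = 0.0351, unscaled 0.361). At both genes the groups did not overlap even before scaling. Rasgrf1, an imprinted gene expressed from the paternal copy, was at 9.53%, 8.06% and 23.7% and then at 4.45%, 6.03% and 10.0%, where the groups overlap (scaled adjusted p = 0.0476). Naxd, an enzyme of NAD(P)H repair, and Med6, a subunit of Mediator, had naive means of 8.68% and 5.29% and 12 h means of 3.96% and 2.33% (scaled adjusted p = 0.0271 and 0.0142). With only the 6 libraries at 0 and 12 h in the fit none of the 10 was called. At 24 h the coverage was 53.5% ± 1.25 at Ttyh1, 32.8% ± 22.0 at Ifnlr1, 41.1% ± 6.65 at Rasgrf1, 14.8% ± 2.14 at Naxd and 9.27% ± 1.48 at Med6 (SD, n = 4), above both earlier means in each case.

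H3K27ac and H2AK119Ub were read at the same 5 genes. H3K27ac peaks lay at Ttyh1 and at Ifnlr1 in none of the 3 libraries at 0 h and in every one at 12 h, covering a mean of 9.63% and 19.8% of the region at 12 h. Rasgrf1 had a peak in 2 libraries at 0 h and 3 at 12 h, and Naxd and Med6 in 0 and 1. H2AK119Ub lay at Ttyh1 in 0 of its 4 libraries at 0 h and in all 3 at 12 h (mean 47.3% at 12 h), and at the other 4 genes in every library at both times. At the 12 named rises and at the 8 genes fully covered in naive cells no H3K27ac library had a peak at either time. The H3K27ac lists also covered more of the autosomes at 12 h, 58.9 to 123 Mb against 16.3 to 51.8 Mb. So did the H2AK119Ub lists, 100 to 161 Mb against 27.7 to 58.5 Mb. The part of these lengths in the counts was not tested.

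Scaling works against genes at full coverage. Foxd1, at 100% in every list, had scaled means of 171% at 0 h and 67.1% at 12 h (difference -104, SE 37.7, adjusted p = 0.149), since a region cannot exceed full coverage while the list around it grows. Without naive replicate 3 the same scaled comparison gave an adjusted p of 7.64e-05. The 1016 genes called lower in that setting include cases of this kind.

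The gene lists fall into those with more coverage in naive cells, highest in naive replicate 3, those with less and those with hardly any peak. They were described by counts, to be read against the 1.92% of all tested genes that were higher unscaled, 4.03% scaled and 24.5% unscaled without naive replicate 3. Medians are differences in percentage points beside 9.92 over all tested genes. List members without a naive peak also passed the filter only through their 12 h peaks, so their p-values, unscaled and scaled, depend on it. Among those described below this holds for Hoxd9, Tcf23, Hba-a1, Mpo, S100a9, Il33, Olfr33, Vmn2r129 and Rrm2.

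Developmental regulators made up the first kind, with coverage that differed widely between the naive lists. Of 77 non-Hox homeobox genes 71 were tested, 0 were called in either fit, and the median difference was 18.0. Their mean coverage was 27.9%, 45.6% and 73.7% in the naive lists and 69.7%, 62.8% and 70.3% at 12 h. Naive replicate 3 was the highest of the 6, and without it 29 of the 71 were called higher, where 24.5% of all tested genes were. The mean coverage of 39 Hox genes was 9.64%, 36.3% and 63.5% in the naive lists and 56.0%, 46.5% and 57.0% at 12 h. Of these 34 were tested, 1 was higher (10 without naive replicate 3) and the median difference was 17.5. The one was Hoxb5, which specifies axial position, at 0%, 0% and 12.6% in the naive lists and 49.8%, 41.1% and 68.8% at 12 h (adjusted p = 0.0448, and 0.0818 after scaling). Hoxd9 was called only after scaling, from 0% in the naive lists to 44.5%, 33.2% and 40.3% (scaled adjusted p = 0.0121, unscaled 0.121). Of 41 Gata, Sox, Tbx and Fox genes 37 were tested and 0 were called, and of 40 neurogenic and other tissue bHLH genes 28 were tested and 0 were called unscaled. One of them, Tcf23, passed after scaling, with 0% in the naive lists and 25.6%, 28.0% and 22.1% at 12 h (scaled adjusted p = 0.0499). Sox1, which marks neural progenitors, shows how the naive lists differed, with 0% in replicate 1, partial coverage in replicate 2 and 100% in replicate 3, and 100% in all 12 h lists (adjusted p = 0.218, and 0.000353 without naive replicate 3). Among 50 Wnt, Fgf, Bmp and hedgehog ligand genes 35 were tested and 0 were called. Their mean coverage was 15.9%, 13.4% and 37.9% in the naive lists and 38.9%, 29.4% and 34.1% at 12 h. In all of these lists the mean of naive replicate 3 lay within or above the 12 h range.

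**Figure D5:**
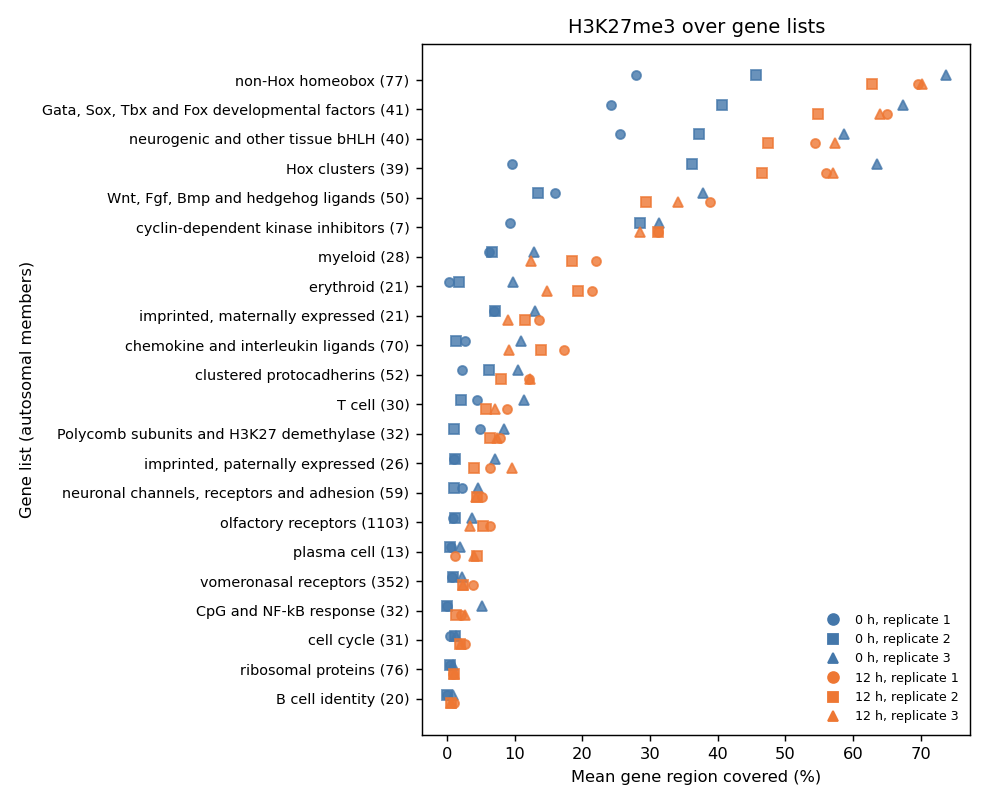
Mean percent of the gene region covered by H3K27me3 peaks over all autosomal members of each list (number of members in brackets), for the 3 naive (blue) and 3 12 h (orange) libraries. Developmental regulators are highest, B cell identity and ribosomal protein genes are near 0%, and naive replicate 3 lies near the 12 h libraries in most lists.

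Genes of other blood lineages were covered in part. Of 21 erythroid genes 7 were tested and 1 was higher (3 without naive replicate 3), Hba-x, with a median difference of 18.2. Hba-a1, an adult alpha globin gene next to it, was at 0% in the naive lists and 58.4%, 78.3% and 44.6% at 12 h, called only after scaling (adjusted p = 0.0531 unscaled, 0.0141 scaled). Hba-a1 has a near-identical copy, so reads may have been split between the copies. Of 28 myeloid genes 7 were tested and 1 was higher, Mpo, the myeloperoxidase of neutrophils. Mpo was at 0% in the naive lists and at 46.9%, 56.4% and 26.3% at 12 h (difference 43.2, SE 9.32, adjusted p = 0.0406). S100a9, a calcium-binding protein of the same cells, was at 0% and then at 100%, 58.2% and 3.98%, and did not pass (adjusted p = 0.222). Of 30 T cell genes 8 were tested and 0 were called, with a median difference of 5.06. Of 70 chemokine and interleukin ligand genes 14 were tested and 1 was higher, Il22 (5 without naive replicate 3). Il33 was called only after scaling, from 0% to 11.2%, 11.2% and 11.0% (scaled adjusted p = 0.0260).

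Receptor genes of the nose contributed several rises, but most of them had no peak. There was none in any of the 6 lists at 968 of 1103 olfactory and 325 of 352 vomeronasal receptor genes. Over all autosomal genes 70.4% had none. Of 1103 olfactory receptor genes 64 were tested and 7 were higher, 6 after scaling and 30 without naive replicate 3, with a median difference of 30.8. Olfr655 was at 0%, 0% and 4.53% in the naive lists and at 100% in all 12 h lists (adjusted p = 0.00284). Olfr33 was at 0% and then at 100%, 81.0% and 100% (adjusted p = 0.00438). The number of olfactory receptor genes with a peak was 18, 21 and 62 in the naive lists and 111, 92 and 59 at 12 h. Naive replicate 3 again fell within the 12 h range. Of 352 vomeronasal receptor genes 11 were tested and 1 was higher (6 without naive replicate 3), Vmn2r129, from 0% to 75.3%, 74.3% and 45.0% (adjusted p = 0.0106). These families have close copies, so the assignment of reads among members is uncertain.

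Of 20 B cell identity genes 19 had no peak in any of the 6 lists, where 70.4% of all autosomal genes had none. The other, Pou2f2, which codes for the transcription factor Oct-2, was at 0%, 0% and 18.4% in the naive lists and at 18.9%, 10.0% and 11.0% at 12 h (adjusted p = 0.536). Of 32 genes of the CpG and NF-kB response 23 had no peak, a share like that of all genes, and among the naive lists only replicate 3 had peaks, at 8 of the 32. The test could be made for 2 members, and neither was called. These were the immediate early genes Egr2 and Fos. Egr2 was at 0%, 0% and 36.2% and then at 36.5%, 34.9% and 37.3% (adjusted p = 0.323, and 0.0235 without naive replicate 3), and Fos at 0%, 0% and 5.29% and then at 23.0%, 0% and 41.5% (adjusted p = 0.464). Of 13 plasma cell genes 9 had no peak, 2 were tested and none was called. Prdm1, which codes for the plasma cell regulator Blimp-1, was at 7.09%, 5.99% and 20.7% and then at 11.4%, 17.9% and 13.8% (adjusted p = 0.848).

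Of 31 cell cycle genes 27 had no peak and 3 were tested. Rrm2, a subunit of ribonucleotide reductase, was at 0% in the naive lists and at 28.1%, 31.7% and 32.1% at 12 h, called only after scaling (adjusted p = 0.189 unscaled, 0.0180 scaled). The cyclin-dependent kinase inhibitors Cdkn2a and Cdkn2b were at 20.9% and 43.7% in naive replicate 1 and at 100% in the other 5 lists, and neither was called. Of 76 ribosomal protein genes 69 had no peak and 0 of 4 tested were called. Of 32 genes for Polycomb subunits and the H3K27 demethylase 9 were tested and 0 were called. Among them Cbx8, a reader of H3K27me3, was at 5.81%, 0% and 69.2% in the naive lists and at 59.9%, 25.7% and 50.7% at 12 h (adjusted p = 0.544, and 0.0314 without naive replicate 3). In the remaining lists, 0 of 18 tested neuronal channel, receptor and adhesion genes, 0 of 18 clustered protocadherins, 0 of 10 maternally expressed and 0 of 7 paternally expressed imprinted genes were called unscaled. Rasgrf1, of the last list, is the fall after scaling described above.

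Bins of 100 kb, which do not depend on gene models, gave a weaker picture. Of 24615 autosomal bins 5867 were tested. In the unscaled limma fit 0 (0%) were higher and 0 (0%) lower, the smallest adjusted p was 0.218, and at an unadjusted p under 0.05 there were 1053 (17.9%) higher and 3 (0.0511%) lower. After scaling 139 (2.37%) were higher and 10 (0.17%) lower at an adjusted p under 0.05. In 1335 bins (22.8%) every 12 h list was above every naive list, and in 4 (0.0682%) below. Without naive replicate 3, 947 bins (16.1%) were higher unscaled, and 1544 (26.3%) were higher and 757 (12.9%) lower after scaling. The scaled count of 139 was 0 without naive replicate 1, 12 h replicate 1 or 12 h replicate 2, 34 without naive replicate 2 and 69 without 12 h replicate 3. The count of 10 lower bins was 3 without naive replicate 1, 0 without 12 h replicate 1 or 2 and 4 without 12 h replicate 3.

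Among the bins with the smallest unscaled p, chr3:30000001-30100000 holds part of Mecom, which codes for a transcription factor of blood stem cells. It was at 0% in the naive lists and at 9.64%, 9.16% and 7.47% at 12 h. The bin chr7:104500001-104600000, with Olfr651 to Olfr655, was at 0%, 0% and 1.04% and then at 31.8%, 21.1% and 9.32%. Both passed only after scaling (adjusted p = 0.0436). Bins without a naive peak, such as the Mecom bin, passed the filter only through their 12 h peaks, so their p-values depend on it. Under both other filters tried, no bin was called after scaling. Of the bins lower after scaling, chr1:128500001-128600000 holds the region of Cxcr4, the chemokine receptor that guides B cell homing. It was at 51.0%, 37.2% and 58.8% in the naive lists and at 48.3%, 32.4% and 29.1% at 12 h (scaled adjusted p = 0.0457, unscaled 0.400). The longest lost stretch lies in this bin.

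H3K27me3 was concentrated in gene-rich bins at both times, with a lower ratio in every 12 h list. Coverage of 100 kb bins with 6 or more genes was 2.91 ± 0.124 times the autosomal share at 0 h and 2.45 ± 0.256 times at 12 h (SD, n = 3 each). Each naive list, at 3.05, 2.87 and 2.82, was above each 12 h list, at 2.24, 2.38 and 2.74, naive replicate 3 included. The highest ratio belonged to the shortest list, naive replicate 1 (29.7 Mb). The lowest belonged to the longest, 12 h replicate 1 (132 Mb). The part of list length in these ratios was not tested. In bins without a gene the ratio was 0.170 ± 0.0126 at 0 h and 0.208 ± 0.0259 at 12 h. Bins with 1 to 2 genes went from 0.809 to 0.876 and bins with 3 to 5 genes from 1.91 to 1.81. In each of the 4 classes the 2-sided exact permutation test gave p = 0.1, the smallest possible (adjusted p = 0.1 over the 4 classes).

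Promoters at least 50% covered numbered more at 12 h than in naive replicates 1 and 2 in both CpG classes. CpG-rich promoters were covered to 6.71%, 6.91% and 16.9% of 8911 in the naive lists and to 16.3%, 13.7% and 16.0% at 12 h. Of the other 16836 promoters 666, 590 and 1706 were covered in the naive lists and 2132, 1799 and 1589 at 12 h. The CpG-rich part of the covered promoters was 47.3%, 51.1% and 47.0% in the naive lists and 40.6%, 40.4% and 47.2% at 12 h, a difference of -5.71 percentage points that did not pass (2-sided exact permutation p = 0.2).

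The other Polycomb features were read at the 126 genes higher at 12 h, from separate libraries. H2AK119Ub covered a mean of 3.23% of these regions at 0 h and 18.0% at 12 h. As the ratio to autosomal coverage in the same list, it was 2.38, 1.84, 2.49 and 1.67 at 0 h and 3.77, 3.19 and 3.56 at 12 h, without overlap. The log2 difference was 0.76, with a 2-sided exact permutation p of 0.0286, the smallest possible for 4 libraries against 3. Adjusted over the 3 features that could be tested it was 0.0857. The ratio for Suz12 was 2.11 ± 0.632 at 0 h and 1.72 ± 0.374 at 12 h (SD, n = 3 each, exact permutation p = 0.4), and for Ring1B 1.89 ± 0.110 and 1.63 ± 0.397 (exact p = 0.3). The Suz12 and Ring1B lists hold a fixed top share of signal, so their length does not measure occupancy. The H3K27ac ratio lay between 0 and 0.285 in the 0 h libraries and between 0.358 and 0.552 in the 12 h libraries. H3K9me3 was at 0 in all 4 libraries at 0 h and between 0.0644 and 0.227 at 12 h. Libraries without coverage left these 2 features untested. The sample titles of the H3K9me3 libraries read H3K29me3, and they were taken as H3K9me3 here.

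Single genes differed in this respect. Krt27, Nr0b2 and Cd300e had no H2AK119Ub peak in the 4 libraries at 0 h and one in each of the 3 at 12 h, with mean coverage of 55.9%, 59.6% and 50.2% at 12 h. Prnd had H2AK119Ub in 2 of its 4 naive libraries (mean 30.1%) and in every 12 h library (mean 98.0%). Hba-x had it in 0 of 4 and 2 of 3. Pf4 and Ackr1 had no H2AK119Ub peak in any library at either time. Nkx2-9, fully covered by H3K27me3 in all naive lists, had none either, while Mos was at 100% at both times. The H2AK119Ub lists as a whole covered 27.7 to 58.5 Mb of the autosomes at 0 h and 100 to 161 Mb at 12 h. The part of this in the values at single genes was not tested.

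In the 1546 gained stretches H2AK119Ub covered 5.72% at 0 h and 27.4% at 12 h, or 3.59 and 5.25 times the autosomal share. In genes with a peak in all 3 naive lists the share covered by H2AK119Ub was 7.63% at 0 h and 17.6% at 12 h, while the ratio was 4.95 and 3.43. H3K27ac covered 0.0266% of the gained stretches at 0 h and 0.335% at 12 h. H3K9me3, a mark of constitutive heterochromatin, covered 0.00378% and 0.215%. These values have no test. The H3K9me3 lists as a whole also covered more of the autosomes at 12 h, 177 to 215 Mb against 23.0 to 125 Mb. In the 139 bins higher after scaling the H2AK119Ub ratio was 0.798 at 0 h and 1.24 at 12 h and the H3K9me3 ratio 0.0730 and 0.149. Both gave a 2-sided exact permutation p of 0.0286 (adjusted over 5 features 0.0714). The H3K27ac ratio in these bins was 0.491 at 0 h and 0.694 at 12 h, without overlap. Its exact permutation p was 0.1, the smallest possible for its libraries (adjusted 0.167). The Suz12 ratio was 1.22 and 1.23 and the Ring1B ratio 1.08 and 1.04.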

How the data were processed

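H3K27me3 peaks of naive (0 h) and 12 h CpG-stimulated B cells were analysed, with 1 list per library; the labels call the replicates biological. The authors deposited SEACR peak lists with a total signal and a highest signal per peak; the file names give "norm" and "relaxed". The signal was used only to rank peaks within a list and to read its smallest unit. Tools named in the submitters' processing notes are deepTools 3.5.1, Bowtie2 2.3.4.1, Trimmomatic 0.32 and Picard, with mm10 as the build. The SEACR version, the way reads were divided between alleles and their depth were not stated there or in the labels. Counting error could therefore not be computed.

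From the positions, the percent of each gene region (RefSeq GRCm38.p6 gene with 2 kb on each side) and of each 100 kb bin covered was computed. The main test was limma 3.58.1 in R 4.3.3 (trend, robust) of the 12 h minus 0 h contrast. All 10 H3K27me3 libraries, the 4 at 24 h included, shared 1 estimate of the spread. Features with a peak in at least 3 of the 6 libraries at 0 and 12 h were tested, with Benjamini-Hochberg adjustment at 0.05. Scaling multiplied each library by the geometric mean of the 6 autosomal covered lengths over its own. Single values were compared by exact permutation tests. All adjusted p-values of genes and bins come from limma. The other steps used Python 3.11.15, pandas 2.3.3, numpy 2.4.6 and matplotlib 3.10.9. The scripts were tested on simulated data.

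Named rises were the 12 genes with the largest difference among those passing in both fits without overlap of the groups. Named falls were those passing after scaling, at most 8. Naive genes were the 8 with the highest lowest naive value, list examples the up to 4 members with the smallest p. Ties went to the smaller p, then the name. Predicted models that do not code for protein were not named, genes with close copies (olfactory and vomeronasal receptors) only within their lists, and of overlapping regions only 1. The groups, members and gene lists were chosen with earlier results of these data known. The alternatives tried were the libraries in the fit, a replicate block, filters, an arcsine scale, stricter or equally long lists, region and bin sizes, and leaving out each library. 1 locus is not reported here.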

Additional observations from a re-analysis of the deposited data

Results flagged for a closer look

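At 24 h, 4 of the named rises had 1 library set apart below the other 3, by the gap to the nearest value relative to the range. The values were 97.8% at Pf4, 93.2% at Ackr1, 80.0% at Krt27 and 46.0% at G6pc. The other 3 libraries stood between 99.8% and 100% at the first 3 genes, and between 91.8% and 100% at G6pc. The rule flags about 1 of 20 groups by chance when values are normally distributed. These values cannot exceed 100%, so that rate does not apply, and even a small shortfall can be flagged. The rule was applied to 17 genes, of which Hba-x, Nr0b2 and Cd300e had the same value in every 24 h library and could not be flagged. It was also applied to the ratios of H2AK119Ub at 0 h and H3K9me3 at 12 h over the genes higher at 12 h. None of these ratios was flagged. The 24 h libraries entered the comparison of 12 h with 0 h only through the estimate of the spread.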

How the results depend on the processing

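No single gene or length that was followed changed direction under the alternatives in which it could be tested. Of the 24 genes followed, only 6 could be tested with lists of equal length and 10 with stricter lists. With lists of equal length lower genes outnumbered higher ones. Counts of called genes and bins depended strongly on the settings, and for these changes the cause was not tested. In the order genes higher and lower unscaled, then higher and lower scaled, the reported counts are 126, 0, 265 and 10. With only the 6 libraries in the fit they were 138 (70 of the 126 among them), 0, 0 and 0. With a peak required in at least 1 of 6 libraries they were 54, 0, 124 and 1, and in at least 3 of 10 libraries 50, 0, 131 and 2. The arcsine scale gave 359, 3, 454 and 39, the stricter lists (peaks above each list's median signal) 128 (30 of the 126 among them), 0, 199 and 8, and lists of equal length 5, 9, 11 and 20. Gene bodies without flanks stayed within 1.5 times each count, with 90 of the 126 called, and 5 kb flanks gave 123 (73 of the 126), 1, 293 and 14. Leaving out each library in turn gave 54 to 1610, 0 to 3, 165 to 1524 and 3 to 1016, with the highest values without naive replicate 3 (unscaled, 3 genes were lower whichever naive replicate was left out).

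For 100 kb bins the reported counts, in the same order, are 0, 0, 139 and 10. With the 6 libraries alone, and under both other filters, the scaled counts were 0 and 0. The arcsine scale gave 603, 1, 611 and 62, the stricter lists 0, 0, 186 and 20, and lists of equal length 1, 0, 1 and 0. Bins of 50 kb gave 435 and 43 after scaling and bins of 200 kb 29 and 3. Leaving out each library gave 0 to 947, 0, 0 to 1544 and 0 to 757.

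Replicate numbers are shared between the groups, but the labels do not tie them to an animal, and deviations of same-numbered libraries correlated at -0.04, 0.07 and 0.06. With the replicate block 0 genes were called in each direction and fit, and among bins 1 was lower after scaling.

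The log2 difference in covered length ranged from 0.92 to 1.75 when each library was left out, and was 1.44 with the stricter lists and 0.20 with lists of equal length. The mean share of naive regions covered at 12 h was 95.6% for regions in all 3 naive lists, 90.5% with stricter lists, 71.9% with lists of equal length, and 84.7% to 95.0% when each library was left out. The share of 12 h coverage outside was 32.7% against any naive list and 43.9% beyond 10 kb.

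Of the 24 genes and list members called that were followed, 12 lost their call with the 6 libraries alone, 24 with the replicate block, 10 under either other filter, 9 with 5 kb flanks and 6 to 10 when a library other than naive replicate 3 was left out. With lists of equal length 6 of the 24 could be tested and 4 lost their call. Leaving out H2AK119Ub libraries gave log2 differences of 0.66 to 0.85 at the 126 genes. Leaving out H3K27me3 libraries gave -0.19 to -0.33 for bins with 6 or more genes. Both were chosen after the data were seen. Depth is unknown and limits what the absence of a peak can mean.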
